A study of Solanum lycopersicum with 30 samples.

Results

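Starch made in leaves by day is laid down from ADP-glucose and broken down again at night. ADP-glucose pyrophosphorylase, a complex of large and small subunits, makes the ADP-glucose and is regarded as the committed step of starch synthesis. Granule-bound starch synthase lengthens the amylose chains within the starch granule, and beta-amylases release maltose from starch, while some members of the beta-amylase family have lost catalytic activity. In leaves, starch stores also change under drought, and many starch genes follow the day-night cycle. Described here are 9 tomato genes of these classes among the 35596 rows of the gene count table, chosen by identifier from a list that gives 4 as ADP-glucose pyrophosphorylase subunits, 1 as a granule-bound starch synthase and 4 as beta-amylases. In the order of that list, Solyc07g056140, Solyc01g109790, Solyc07g019440 and Solyc01g079790 were taken as the pyrophosphorylase subunits, Solyc08g083320 as the starch synthase, and Solyc09g091030, Solyc08g077530, Solyc08g007130 and Solyc01g067660 as the beta-amylases. The files give these identifiers no gene name, so which pyrophosphorylase gene encodes which subunit, where each protein sits in the cell and whether each beta-amylase is active are not stated here. All 9 passed the filter on low counts, and the only value of 0 was that of Solyc01g109790 in intervein T1 drought replicate 1.

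Plants of tomato (Solanum lycopersicum) were kept in a chamber with 16 h of light and 8 h of dark, and leaf 4 was divided into a vein-enriched piece and the intervein tissue. The 10 groups, each with 3 plants, were watered plants at T0 (25 days after sowing), watered and drought plants at T1 (29 days), and watered and recovered plants at T2, each in vein and in intervein. By T1 water had been withheld from the drought plants for 6 days. Watered plants received 150 mL every other day. Recovered plants were drought plants returned to watering, sampled 3 days later per the growth protocol. The labels leave the age of the T2 plants uncertain. The labels name no transgene, mutant, cultivar or hour of sampling. Both tissues came from the same leaves per the protocol, but the replicate numbers do not tie a vein library to an intervein library.

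The 30 libraries held 2718799 to 13641845 counts and detected 13740 to 20143 genes, and the 9 genes together took 0.0683 to 0.241% of a library's counts. Since the identifiers have no names, the tissue labels were checked by a score, the mean log2 CPM (CPM are counts scaled to a common library size, prior count 2) of genes higher in vein minus that of genes higher in intervein, both chosen in the 6 T0 libraries without the 9 genes. The T0 libraries are therefore placed by the choice itself. Apart from 3 libraries the score was 0.70 to 2.06 in vein and -4.10 to -2.44 in intervein. The library labelled vein T2 recovered 2 scored -3.14, among the intervein libraries, that labelled intervein T2 recovered 1 scored 0.49, and that labelled vein T1 drought 2 scored -0.54. Intervein T1 drought 1 had the fewest genes detected (13740) and 12.2% of its counts in rows of non-coding identifiers, against 2.63 and 7.60% in its fellow drought libraries and 0.817 to 1.56% in the watered ones. The main results that rest on these libraries are also given without them. Vein-enriched tissue still holds other leaf cells, and in bulk samples such as these, fewer cells of a type and less RNA per cell cannot be told apart.

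Levels below are CPM scaled by TMM factors, as mean ± SD of 3 libraries. They are compared between groups within a gene and not between genes, because transcript lengths were not used here. When the 10 groups were put in order of their mean for each gene, 81 pairs of neighbouring groups resulted, and in 3 of them the libraries of the higher group all lay above those of the lower group. The orders are therefore descriptions of means, and most neighbouring groups did not differ beyond their spread.

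**Figure D1:**
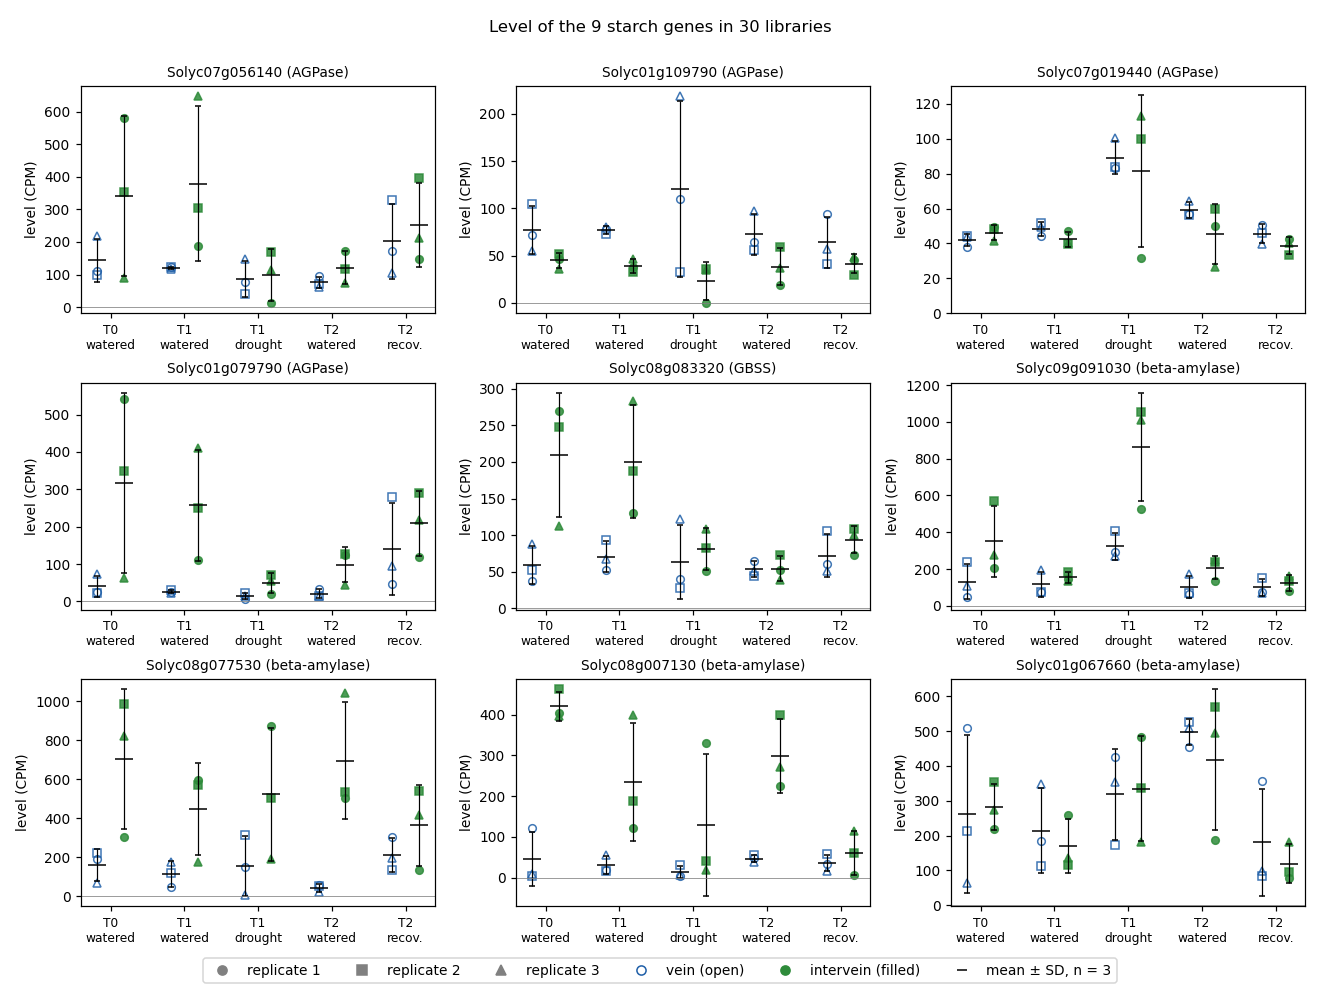
Level of each of the 9 genes in CPM (scaled counts, linear axes that differ between panels) in the 5 conditions of vein and of intervein, with 1 point per library and the mean ± SD of 3 libraries per group. Most of the spread between libraries of a group is as wide as the steps between neighbouring groups, and Solyc09g091030 has its highest mean in drought intervein (865 CPM).

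Among the pyrophosphorylase genes, Solyc07g056140 had its highest mean in watered intervein, at 379 ± 239 CPM at T1 and 341 ± 246 CPM at T0. Recovered intervein (252 ± 128 CPM) and recovered vein (202 ± 115 CPM) followed, and then watered vein at T0 (144 ± 65.95 CPM), watered intervein at T2 (121 ± 49.7 CPM) and watered vein at T1 (121 ± 3.28 CPM). It was lowest in drought intervein (99.4 ± 79.4 CPM), drought vein (87.6 ± 55.04 CPM) and watered vein at T2 (76.7 ± 16.9 CPM), and its highest mean was 4.95 times its lowest. Every neighbouring pair of groups overlapped. Solyc01g079790 had a similar order with wider steps. Its means were 317 ± 241 CPM in watered intervein at T0, 257 ± 149 CPM at T1 and 98.1 ± 47.1 CPM at T2, with 209 ± 86.6 CPM in recovered and 48.9 ± 26.2 CPM in drought intervein. In vein they were 40.4 ± 28.8 CPM at T0, 25.9 ± 4.22 CPM in watered T1, 14.4 ± 8.78 CPM in drought T1, 20.3 ± 11.6 CPM in watered T2 and 140.1 ± 124 CPM in recovered T2. The highest group mean was 21.97 times the lowest, and no neighbouring pair stood apart.

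Solyc07g019440, another pyrophosphorylase subunit gene, had the narrowest range of the 9, with its highest mean 2.30 times its lowest. Drought vein (89.3 ± 9.50 CPM) and drought intervein (81.6 ± 43.6 CPM) led, followed by watered vein at T2 (59.3 ± 4.50 CPM), whose libraries all lay above those of watered vein at T1 (48.4 ± 3.90 CPM). Its other 6 groups lay close together. Their means were 46.2 ± 4.50 CPM in watered intervein at T0 and 38.7 ± 4.86 CPM in recovered intervein at the ends, with 45.4 ± 5.48 CPM in recovered vein, 45.4 ± 17.2 CPM in watered intervein at T2, 42.4 ± 4.26 CPM in watered intervein at T1 and 41.8 ± 3.47 CPM in watered vein at T0. Solyc01g109790 was the only 1 of the 9 genes whose 5 vein means all lay above its 5 intervein means. In vein it stood at 120.5 ± 93.3 CPM in drought T1, 77.4 ± 25.4 CPM at T0, 77.3 ± 3.94 CPM in watered T1, 72.4 ± 21.6 CPM in watered T2 and 63.9 ± 27.1 CPM in recovered T2. In intervein it stood at 44.9 ± 8.05 CPM at T0, 41.4 ± 10.2 CPM in recovered T2, 38.9 ± 7.25 CPM in watered T1, 38.3 ± 19.8 CPM in watered T2 and 23.4 ± 20.2 CPM in drought T1. The drought vein libraries of this gene read 110.2, 32.7 and 219 CPM, a spread wider than the whole range of its group means.

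The granule-bound starch synthase gene Solyc08g083320 was highest in watered intervein at T0 (209.5 ± 84.8 CPM) and at T1 (200.3 ± 76.8 CPM). The T1 libraries all lay above those of the next group, recovered intervein (93.6 ± 18.6 CPM). Drought intervein (80.6 ± 28.8 CPM), recovered vein (71.9 ± 29.04 CPM), watered vein at T1 (70.7 ± 20.8 CPM), drought vein (63.2 ± 50.98 CPM), watered vein at T0 (59.1 ± 26.3 CPM), watered intervein at T2 (54.03 ± 17.1 CPM) and watered vein at T2 (53.3 ± 10.6 CPM) overlapped step by step. Watered intervein at T2 thus stood among the vein groups for this gene.

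Of the beta-amylase genes, Solyc09g091030 had its highest mean in drought intervein (865 ± 293 CPM), above watered intervein at T0 (351 ± 194 CPM). Drought vein came next (325 ± 73.5 CPM), with every library above those of watered intervein at T2 (208 ± 63.96 CPM). Watered intervein at T1 (154 ± 27.3 CPM), watered vein at T0 (132 ± 96.7 CPM), recovered intervein (125 ± 42.4 CPM), watered vein at T1 (116 ± 69.3 CPM) and T2 (101 ± 61.3 CPM) and recovered vein (100.01 ± 45.8 CPM) overlapped their neighbours. Solyc08g077530 had its 5 intervein means above its 5 vein means, from 703 ± 356 CPM at T0 through 694 ± 299.8 CPM in watered T2, 522 ± 340.4 CPM in drought T1 and 447 ± 234 CPM in watered T1 to 364 ± 209 CPM in recovered T2. In vein this gene stood at 213 ± 87.1 CPM in recovered T2, 160.3 ± 81.99 CPM at T0, 157 ± 154 CPM in drought T1, 115 ± 65.4 CPM in watered T1 and 44.7 ± 20.4 CPM in watered T2.

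Solyc08g007130, also listed as a beta-amylase, spanned the widest range of the 9, with its highest group mean 29.3 times its lowest. Intervein means were 421 ± 35.6 CPM at T0, 299 ± 89.7 CPM in watered T2, 236 ± 145 CPM in watered T1, 129.8 ± 174 CPM in drought T1 and 59.7 ± 54.2 CPM in recovered T2. Its vein means were 46.7 ± 8.83 CPM in watered T2, 45.2 ± 66.4 CPM at T0, 36.02 ± 19.9 CPM in recovered T2, 30.9 ± 22.5 CPM in watered T1 and 14.4 ± 14.1 CPM in drought T1. Single libraries set some of these means, as in drought intervein, where it read 330.01, 41.4 and 17.8 CPM, with the high value in the library of few detected genes. Solyc01g067660 was the beta-amylase gene with no order by tissue. Its means were 497 ± 37.6 CPM and 417 ± 202 CPM in watered vein and intervein at T2, 334 ± 150.4 CPM and 318 ± 130.4 CPM in drought intervein and vein, and 282 ± 67.05 CPM and 262 ± 227 CPM at T0. They were 169 ± 77.9 CPM and 214 ± 121 CPM in watered intervein and vein at T1, and 119 ± 55.8 CPM and 181 ± 153 CPM in the recovered groups.

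In watered leaves, 6 of the 9 genes were lower in vein than in intervein over T0, T1 and T2, 0 were higher and 3 did not pass the test, where 27.3% of all rows tested were called in either direction and 13.8% were called lower. The median log2 difference, vein minus intervein, was -1.12 over the 9 genes and 0.09 over all rows. The 9 watered libraries of each tissue ran over 13.1 to 73.4 CPM in vein (median 25.4) and 43.7 to 541 CPM in intervein (median 126) for the pyrophosphorylase gene Solyc01g079790, with overlap at the ends of the ranges (fitted difference -2.85 log2, SE 0.45, 7.21-fold lower, adjusted p = 9.16e-05 by edgeR). For the beta-amylase gene Solyc08g007130 they ran over 4.04 to 122 CPM in vein (median 37.6) and 122 to 462 CPM in intervein (median 397), and again the ranges met at their ends (-2.94 log2, SE 0.65, adjusted p = 0.00159 by edgeR). Solyc08g077530 read 21.2 to 224 CPM in vein (median 67.8) and 177 to 1039.7 CPM in intervein (median 569), a difference of -2.69 log2 (SE 0.51, adjusted p = 0.000501 by edgeR). The starch synthase gene Solyc08g083320 read 36.8 to 93.1 CPM in vein (median 52.3) and 38.2 to 283 CPM in intervein (median 131) (-1.12 log2, SE 0.28, adjusted p = 0.00419 by edgeR). The log2 ratio of its mean vein to mean intervein CPM was -1.83 at T0 and -1.50 in watered T1, but -0.02 in watered T2. These 4 calls, each of a mean over the 3 times, held under each of the 27 alternatives tried, leaving out each watered library included. No alternative took 1 time alone. The calls of Solyc07g056140 (-1.18 log2, SE 0.41, adjusted p = 0.0328 by edgeR) and Solyc09g091030 (-0.95 log2, SE 0.31, adjusted p = 0.0242 by edgeR) were less firm. That of Solyc07g056140 was lost without any 1 of 12 libraries (vein T0 1 or 2, vein T1 1, 2 or 3, vein T2 2 or 3, intervein T0 1 or 2, intervein T1 3, or intervein T2 1 or 2), with an adjusted p by edgeR between 0.0506 and 0.0858 and a difference between -1.21 and -1.002 log2. That of Solyc09g091030 was lost without any 1 of 7 (vein T1 1 or 2, vein T2 1 or 2, or replicate 2 of intervein T0, T1 or T2), with an adjusted p by edgeR between 0.0522 and 0.0843 and a difference between -0.89 and -0.75 log2.

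The 3 genes that did not pass in watered leaves were the pyrophosphorylase genes Solyc01g109790 and Solyc07g019440 and the beta-amylase gene Solyc01g067660. Solyc01g109790 had a vein minus intervein difference of 0.90 log2 (95% interval -0.05 to 1.84, adjusted p = 0.15 by edgeR), and its watered libraries ran over 55.3 to 105 CPM in vein (median 72.95) and 19.3 to 58.8 CPM in intervein (median 37.7). Every vein library lay above every intervein library for this gene at T0 and in watered plants at T1. Without intervein T1 drought 1, which is in neither watered group but enters the shared estimate of spread, the same difference of 0.90 log2 had an adjusted p of 0.0153 by edgeR. For Solyc07g019440 the 95% interval was -0.23 to 0.52 log2 and for Solyc01g067660 it was -0.60 to 0.92 log2. In recovered plants at T2 the log2 ratio of mean vein to mean intervein CPM lay between -0.77 and 0.63 over the 9 genes, against -3.96 to 0.92 in watered plants at T2. The recovered groups hold both libraries whose tissue scores go against their labels, and the part of these libraries in that range was not tested.

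**Figure D2:**
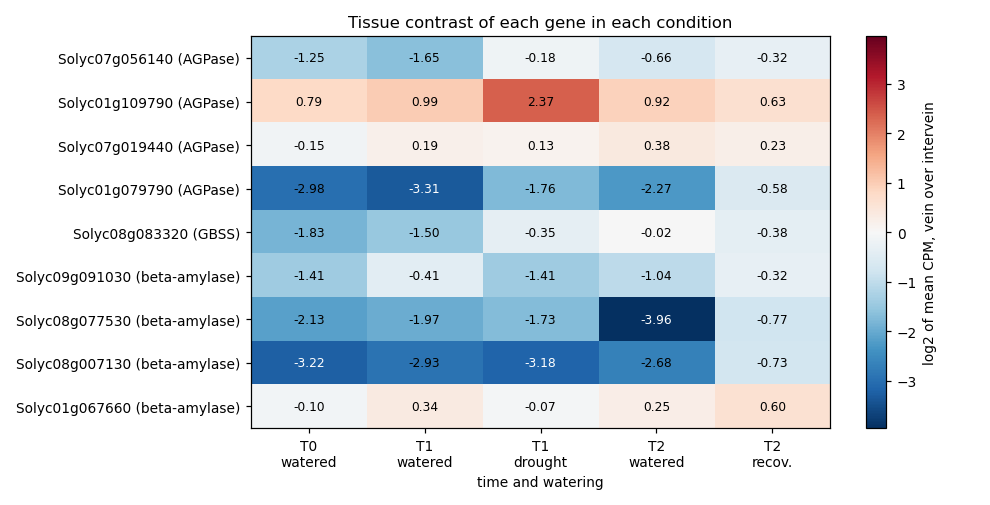
Tissue contrast of each gene in each condition, as the log2 ratio of the mean CPM of 3 vein libraries to that of 3 intervein libraries (colour and printed value, no error shown). 6 genes have a lower mean in vein in all 5 conditions, furthest for Solyc08g077530 in watered plants at T2 (-3.96), while Solyc01g109790 has a higher mean in vein in all 5.

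Drought at T1 addressed how each tissue responds to the loss of water. In intervein, 1 of the 9 genes passed the test, the beta-amylase gene Solyc09g091030, which rose, where 5.19% of all rows were called and 2.51% were called higher. Leaving out 1 library at a time moved the number of rows called from 1009 to between 205 and 980. DESeq2 called 5 of 9 genes and 13.7% of the rows it gave an adjusted p. Before adjustment 5 of 9 genes and 22.2% of all rows had p under 0.05. The median log2 fold change was -0.73 over the 9 genes and -0.08 over all rows. The drought libraries of Solyc09g091030 read 527, 1055 and 1013 CPM and the watered libraries 143, 185 and 134 CPM. Every drought library lay above every watered one, and the fitted rise was 5.62-fold (log2 fold change 2.49, SE 0.56, adjusted p = 0.0178 by edgeR's quasi-likelihood test). Without drought 1, the library with few detected genes, the log2 fold change was 2.70 (adjusted p = 0.0126 by edgeR). It lost its call without drought 3 (2.36, adjusted p = 0.0533), watered 2 (2.58, adjusted p = 0.0632) or watered 3 (2.38, adjusted p = 0.069), all by edgeR.

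Of the pyrophosphorylase genes in intervein, Solyc01g079790 read 20.1, 71.3 and 55.4 CPM under drought against 111, 249.9 and 409 CPM under watering. All drought libraries lay below all watered ones, yet the gene missed the threshold (log2 fold change -2.39, SE 0.77, adjusted p = 0.0662 by edgeR). Solyc07g056140 read 13.1, 169.6 and 115 CPM against 186, 305 and 647 CPM, again with no overlap (-1.93, SE 0.72, adjusted p = 0.113 by edgeR). The starch synthase gene Solyc08g083320 read 50.9, 82.7 and 108 CPM against 131, 188 and 283 CPM, also without overlap (-1.31, SE 0.48, adjusted p = 0.108 by edgeR). For all 3 of these genes the lowest drought value was in drought 1, the library of few detected genes. Without it the log2 fold change was -2.098 for Solyc01g079790, -1.49 for Solyc07g056140 and -1.14 for Solyc08g083320 (adjusted p = 0.173, 0.241 and 0.246 by edgeR). The share of all rows whose intervein drought libraries all lay below the watered ones was 12.3%, and 10.1% had them all above; among the 9 genes the numbers were 3 and 1. Solyc07g019440 went the other way, at 31.8, 99.9 and 113 CPM against 47.3, 39.7 and 40.2 CPM, with the low drought value in the library of few detected genes. Its log2 fold change was 0.95 (SE 0.31, adjusted p = 0.0766 by edgeR), and without that library it passed, at 1.28 (adjusted p = 0.0062). The remaining genes had 95% intervals that took in 0, namely -2.37 to 0.91 log2 for Solyc01g109790, -1.53 to 1.97 for Solyc08g077530, -3.05 to 1.32 for Solyc08g007130 and -0.35 to 2.31 for Solyc01g067660.

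In vein at T1, 0 of the 9 genes passed, where 0.695% of all rows were called by edgeR's test, and DESeq2 also called 0 of 9. Leaving out 1 library at a time moved that share, from 135 rows to between 10 and 341. DESeq2 called 4.85% of the rows it gave an adjusted p. Before adjustment, 2 of 9 genes and 12% of all rows had p under 0.05, and for both genes every drought library lay above every watered one. The median log2 fold change was 0.46 over the 9 genes and -0.0042 over all rows. The beta-amylase gene Solyc09g091030 read 295, 408 and 271 CPM under drought and 77.4, 74.4 and 196 CPM under watering (log2 fold change 1.49, SE 0.54, adjusted p = 0.215 by edgeR). The pyrophosphorylase gene Solyc07g019440 read 83.5, 84.04 and 100.2 CPM and 44.1, 51.6 and 49.4 CPM (0.88, SE 0.31, adjusted p = 0.2 by edgeR). Leaving out intervein T1 drought 1, which is no vein library but enters the shared estimate of spread, gave Solyc07g019440 an adjusted p of 0.0471 by edgeR at nearly the same fold change (0.88). Over all rows, 12% had the vein drought libraries all above the watered ones. Without vein T1 drought 2, whose tissue score lies between the tissues, Solyc09g091030 had a log2 fold change of 1.29 (adjusted p = 0.496) and Solyc07g019440 of 0.92 (adjusted p = 0.354), both by edgeR.

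For the 3 genes that were low in every drought intervein library, drought and watered libraries overlapped in vein. Vein drought libraries of Solyc07g056140 read 75.7, 39.4 and 148 CPM against 123, 123 and 117 CPM under watering, 1 drought library being above all watered ones (-0.47 log2, 95% interval -1.92 to 0.99). Solyc01g079790 read 5.95, 23.5 and 13.9 CPM against 25.4, 30.3 and 21.9 CPM, with 1 drought library inside the watered range (-0.84 log2, 95% interval -2.38 to 0.70). That library was drought 2, whose tissue score lies between the tissues, and drought 1 and drought 3 lay below every watered library. Over the 14 alternatives tried, the log2 fold change of this gene lay between -1.39 and -0.47, and none called it. Solyc08g083320 read 40.1, 27.9 and 122 CPM against 52.1, 93.1 and 66.8 CPM, with drought libraries on both sides (-0.16 log2, 95% interval -1.15 to 0.83). When the vein response minus the intervein response was tested, 0 of the 9 genes passed, and 0 had p under 0.05 before adjustment. Over all rows edgeR's test called 0% (1098 had p under 0.05 before adjustment). DESeq2 called 71 rows, none of them among the 9. The difference was 1.15 log2 for Solyc08g083320 (95% interval -0.25 to 2.55), 1.46 for Solyc07g056140 (-0.60 to 3.52), 1.55 for Solyc01g079790 (-0.62 to 3.72) and -1.005 for Solyc09g091030 (-2.57 to 0.56).

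The authors' deposited table for T1, made from the same counts, gives 5 of the 9 genes in intervein an adjusted p under 0.05 and 0 in vein. The share of all rows that it calls is not given here. DESeq2 run here on these counts called 13.7% of rows in intervein and 4.85% in vein. In the authors' deposited table the intervein log2 fold changes of those 5 are 2.43 (adjusted p = 0.000362) for Solyc09g091030, -2.51 (adjusted p = 0.0118) for Solyc01g079790, -2.06 (adjusted p = 0.038) for Solyc07g056140, 0.88 (adjusted p = 0.046) for Solyc07g019440 and -1.41 (adjusted p = 0.0473) for Solyc08g083320. In vein the authors' deposited table has 0.85 (adjusted p = 0.101) for Solyc07g019440 and 1.45 (adjusted p = 0.104) for Solyc09g091030. The values share all libraries with the edgeR fit and are no second experiment. They differ from it in which genes pass, not in sign for any gene named here.

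**Figure D3:**
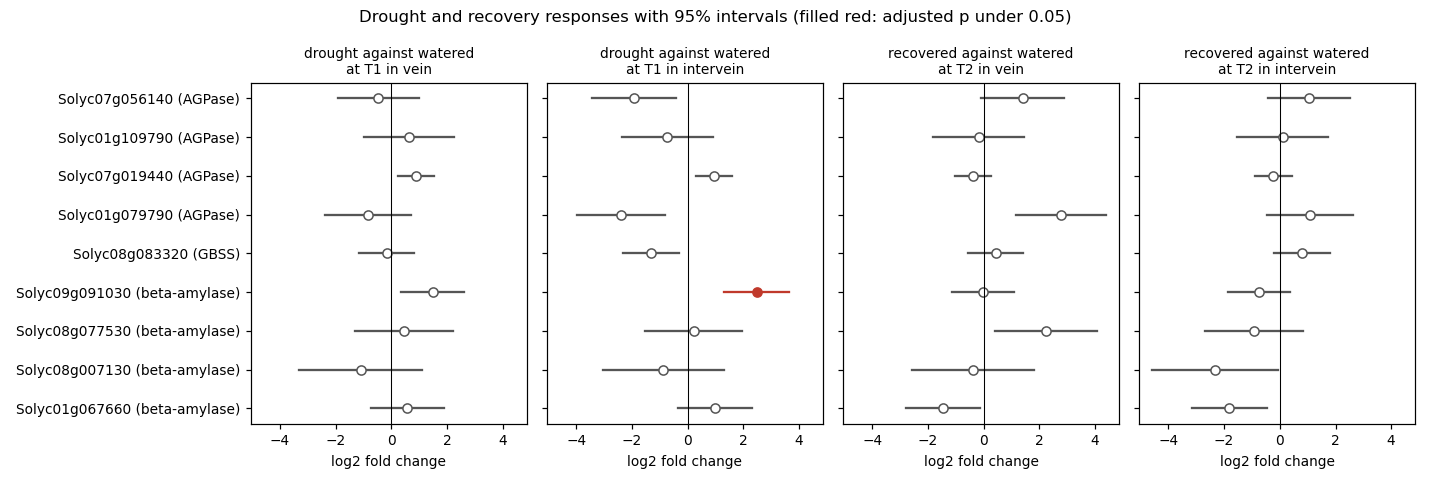
Fitted log2 fold change of each gene with its 95% interval (edgeR, 20 residual degrees of freedom) for drought against watered plants at T1 and recovered against watered plants at T2, in vein and in intervein. Filled points mark an adjusted p under 0.05, which among these 36 values only Solyc09g091030 in intervein at T1 reached.

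Recovered plants were compared with watered plants at T2 to ask what remained after the return to watering. In vein, 0 of the 9 genes passed, where 1.57% of all rows were called by edgeR's test, and DESeq2 called 2 of 9 and 9.37% of rows. Before adjustment 3 of 9 genes and 17.9% of all rows had p under 0.05. The median log2 fold change was -0.01 over the 9 genes and -0.00015 over all rows. The pyrophosphorylase gene Solyc01g079790 read 45.8, 281 and 93.8 CPM in recovered and 33.7, 14.2 and 13.1 CPM in watered vein, all recovered libraries being higher (log2 fold change 2.78, SE 0.78, adjusted p = 0.0662 by edgeR). Its highest value was in the library whose tissue score is that of intervein, and without that library the log2 fold change was 1.77 (adjusted p = 0.436). Solyc07g056140 read 174, 329 and 105 CPM against 95.5, 71.8 and 62.8 CPM, also without overlap and with its highest value in that library (log2 fold change 1.40, SE 0.71, adjusted p = 0.306 by edgeR). The beta-amylase gene Solyc08g077530 read 306, 134 and 197 CPM against 57.7, 55.2 and 21.2 CPM, higher in all recovered libraries (log2 fold change 2.25, SE 0.88, adjusted p = 0.172 by edgeR). Solyc01g067660 read 357, 84.8 and 99.7 CPM against 455, 527 and 509.8 CPM, lower in all (log2 fold change -1.46, SE 0.64, adjusted p = 0.229 by edgeR). Without the library of intervein score, the log2 fold change was 0.84 for Solyc07g056140, 2.48 for Solyc08g077530 and -1.15 for Solyc01g067660 (adjusted p = 0.769, 0.344 and 0.591 by edgeR). Solyc07g019440 was also lower in all, at 50.7, 45.8 and 39.8 CPM against 56.9, 56.5 and 64.5 CPM. Its log2 fold change was -0.38 (SE 0.31, adjusted p = 0.571 by edgeR). Over all rows, the recovered vein libraries lay all above the watered ones in 12.5% and all below in 14.8%, and among the 9 genes the numbers were 3 and 2. Without recovered 1, Solyc01g079790 (3.22, adjusted p = 0.0254) and Solyc01g067660 (-2.42, adjusted p = 0.044) passed edgeR's test, with the out-of-place library still in the group.

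In intervein at T2, again 0 of 9 passed edgeR's test, where 0.772% of all rows were called, and DESeq2 called 0 of 9 and 7.06% of rows. Before adjustment 2 of 9 genes and 17.4% of all rows had p under 0.05. The median log2 fold change was -0.23 over the 9 genes and 0.07 over all rows. Solyc09g091030, the gene that had risen in drought intervein, read 78.9, 135 and 162 CPM in recovered and 135, 239 and 251 CPM in watered plants, and the groups overlapped (-0.73 log2, 95% interval -1.85 to 0.38). Solyc01g067660 read 78.5, 96.2 and 183 CPM against 188, 569.99 and 494 CPM, lower in every recovered library (log2 fold change -1.81, SE 0.65, adjusted p = 0.163 by edgeR). Solyc08g007130 read 5.52, 59.8 and 114 CPM against 226, 399 and 271 CPM and was also lower in all (log2 fold change -2.32, SE 1.09, adjusted p = 0.273 by edgeR), its lowest value lying in the library whose tissue score is near that of vein. Without that library, Solyc08g007130 had a log2 fold change of -1.78 (adjusted p = 0.448 by edgeR) and Solyc01g067660 of -1.58 (adjusted p = 0.318 by edgeR). Solyc08g083320 read 72.6, 108 and 100.02 CPM against 51.8, 72.1 and 38.2 CPM, just above in all (log2 fold change 0.79, SE 0.48, adjusted p = 0.395 by edgeR). The recovered libraries lay all below the watered ones in 9.19% of all rows and all above in 11%. The vein response minus the intervein response at T2 had 0 of 9 genes past edgeR's test and 0% of all rows, of which 1045 had p under 0.05 before adjustment. DESeq2 called 83 rows, none among the 9. Before adjustment 1 of the 9 had p under 0.05, with 3.18 log2 for Solyc08g077530 (unadjusted p = 0.0151, adjusted p = 0.881 by edgeR). Without both T2 libraries out of place it was 2.94 log2.

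Recovered T2 plants were also set against drought T1 plants. This comparison shares the drought libraries with that at T1 and so does not stand apart from it. Its groups also differ in time of sampling, which cannot be told apart here from the return to watering. In intervein 1 of 9 genes passed, where 3.11% of all rows were called and 1.27% were called lower. It was Solyc09g091030, which fell from 527, 1055 and 1013 CPM to 78.9, 135 and 162 CPM, with no overlap (log2 fold change -2.79, SE 0.57, adjusted p = 0.0146 by edgeR). The call was lost without drought 3 (adjusted p = 0.0611), without recovered 1 (adjusted p = 0.054) and without the 3 libraries that lie off their tissue (adjusted p = 0.0519). There the log2 fold change was -2.66, -2.54 and -2.50. In vein 1 of 9 passed, where 2.71% of all rows were called and 1.51% were called higher. It was Solyc01g079790, which rose from 5.95, 23.5 and 13.9 CPM to 45.8, 281 and 93.8 CPM (log2 fold change 3.28, SE 0.80, adjusted p = 0.0322 by edgeR). That rise includes the recovered library with the intervein score, and without it the log2 fold change was 2.29 (adjusted p = 0.161). It was also past the threshold no longer without vein T1 drought 1 (2.90, adjusted p = 0.166), drought 2 (3.82, adjusted p = 0.0559), drought 3 (3.25, adjusted p = 0.108) or recovered 3 (3.50, adjusted p = 0.0624). Solyc07g019440 had -0.97 log2 in vein (adjusted p = 0.0911) and -1.08 in intervein (adjusted p = 0.0585), both by edgeR. Without intervein T1 drought 1 it passed in both, at -0.97 (adjusted p = 0.0192) and -1.44 (adjusted p = 0.00484), all by edgeR.

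The response at T2 minus the response at T1, each against its own watered group, was tested as 1 contrast. In intervein 3 of 9 genes passed, where 10.6% of all rows were called, 6.01% higher and 4.57% lower. For the beta-amylase gene Solyc09g091030 the response went from 2.49 to -0.73 log2, a difference of -3.22 (SE 0.77, adjusted p = 0.0124 by edgeR) that kept its call in all 19 alternatives. For the pyrophosphorylase gene Solyc01g079790 it went from -2.39 to 1.09 (difference 3.48, SE 1.06, adjusted p = 0.0377 by edgeR). Recovered against drought intervein, this gene differed by 2.09 log2 and was not called (SE 0.76, adjusted p = 0.118 by edgeR). The mean of its watered intervein group was 257 CPM at T1 and 98.1 CPM at T2. The starch synthase gene Solyc08g083320 went from -1.31 to 0.79 (difference 2.101, SE 0.68, adjusted p = 0.0476 by edgeR). Recovered against drought plants, Solyc08g083320 differed by 0.21 log2 in intervein (SE 0.47, adjusted p = 0.856 by edgeR), with means of 93.6 and 80.6 CPM, while the mean of its watered intervein group was 200.3 CPM at T1 and 54.03 CPM at T2. The call of Solyc01g079790 held in 10 of 19 alternatives and that of Solyc08g083320 in 7 of 19. Solyc01g079790 lost it without replicate 2 or 3 of the T1 watered, T2 recovered or T2 watered intervein group, or replicate 1 or 3 of the T1 drought one. These fits gave differences of 3.06 to 3.83 log2 and an adjusted p of 0.0529 to 0.0966 by edgeR. Solyc08g083320 lost it without any 1 drought or recovered intervein library, or without replicate 2 or 3 of the T1 watered or 1 or 3 of the T2 watered group. These fits gave differences of 1.85 to 2.37 log2 and an adjusted p of 0.0522 to 0.117 by edgeR.

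Close behind in intervein were Solyc01g067660, whose response went from 0.98 to -1.81 log2 (adjusted p of the difference = 0.0502 by edgeR), and Solyc07g056140, from -1.93 to 1.06 (adjusted p = 0.0565 by edgeR). Their watered intervein means were 169 CPM at T1 and 417 CPM at T2 for Solyc01g067660, and 379 and 121 CPM for Solyc07g056140. Recovered against drought intervein, they differed by -1.49 and 1.34 log2 (adjusted p = 0.186 and 0.277 by edgeR). Single libraries decided the side of the threshold for the 2 differences of response too. Solyc07g056140 passed without T1 drought 2 (adjusted p = 0.035), T1 watered 1 (0.0392) or T2 watered 1 (0.0497). Solyc01g067660 passed without T1 watered 1 (0.0437), T2 recovered 3 (0.0471) or T2 watered 1 (0.0355), all by edgeR. In vein 0 of 9 passed edgeR's test, where 1.5% of all rows were called, and DESeq2 called 1 of 9 and 7.85% of rows. Before adjustment 3 of 9 genes and 17.5% of all rows had p under 0.05. For Solyc01g079790 the vein difference was 3.62 log2 (adjusted p = 0.0836 by edgeR), and it passed without vein T2 recovered 1 (4.05, adjusted p = 0.0476). For Solyc07g019440 it was -1.27 (adjusted p = 0.135 by edgeR), and this gene passed without intervein T1 drought 1 in vein (-1.29, adjusted p = 0.0338) and in intervein (-1.47, adjusted p = 0.0117).

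Among watered plants of both tissues, 0 of the 9 genes passed between T0 and T1, where edgeR's test called 0% of all rows and DESeq2 called 75, none of them among the 9. Before adjustment 0 of 9 had p under 0.05. Between T1 and T2, 0 of 9 passed edgeR's test and 1.99% of all rows were called. Before adjustment 3 of 9 genes and 18.7% of all rows had p under 0.05. DESeq2 called 1 of the 9, Solyc08g083320, and 8.56% of rows. The starch synthase gene Solyc08g083320 came nearest, at -1.15 log2 (SE 0.34, adjusted p = 0.0738 by edgeR), its watered libraries reading 52.1, 93.1 and 66.8 CPM in vein and 131, 188 and 283 CPM in intervein at T1 against 64.9, 44.1 and 50.7 CPM and 51.8, 72.1 and 38.2 CPM at T2. The intervein libraries did not overlap between these times and the vein libraries did. Solyc01g067660 stood at 1.26 log2 (SE 0.45, adjusted p = 0.137 by edgeR) and Solyc07g056140 at -1.15 (SE 0.50, adjusted p = 0.211 by edgeR). Both comparisons of watered times average vein and intervein libraries, which came from the same leaves but entered as independent. A fit with the plant as block was not run for them.

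The counts of some pairs of genes were also divided within each library, which removes library size. These ratios were chosen after the values were seen and carry no test. The ratio of Solyc07g056140 to Solyc07g019440 counts was 0.907, 0.469 and 1.47 in drought vein and 2.79, 2.38 and 2.37 in watered vein at T1. It was 0.413, 1.70 and 1.02 in drought and 3.94, 7.67 and 16.1 in watered intervein. In both tissues every drought library had a lower ratio than every watered one. At T2 the same ratio was 3.43, 7.18 and 2.63 in recovered and 1.68, 1.27 and 0.974 in watered vein. In intervein it was 3.47, 11.9 and 5.28 in recovered and 3.45, 1.95 and 2.81 in watered plants. Recovered libraries lay above watered ones in both tissues without overlap, and the highest in vein was the library with the intervein score. In intervein the groups all but met, at 3.47 against 3.45. The 3.47 was that of recovered 1, whose tissue score is near that of vein. The counts of the beta-amylase genes Solyc09g091030 and Solyc08g007130 had a ratio of 1.60, 25.5 and 56.8 in drought and 1.18, 0.987 and 0.335 in watered intervein at T1, every drought library being higher and the lowest of them being the library with few detected genes. In vein at T1 this ratio was 54.00, 13.4 and 38.3 under drought and 4.26, 4.21 and 3.44 under watering. A high ratio was not confined to drought. In watered vein at T0 it was 0.407, 58.96 and 10.98, and replicate 2 there lay above every drought library of both tissues. In recovered intervein it was 14.3, 2.25 and 1.42. At T1 the vein groups overlapped for Solyc01g079790 to Solyc01g109790, at 0.054, 0.718 and 0.0636 under drought and 0.324, 0.416 and 0.272 under watering. In intervein at T1 that ratio was 2.02 and 1.60 in drought 2 and 3, below the watered 2.95, 7.73 and 8.77, and drought 1 gave no ratio. At T2 its groups overlapped in both tissues. For Solyc01g079790 to Solyc07g019440, every T1 drought library lay below every watered one in both tissues. How often pairs beyond these separate in this way was not tested.

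**Figure D4:**
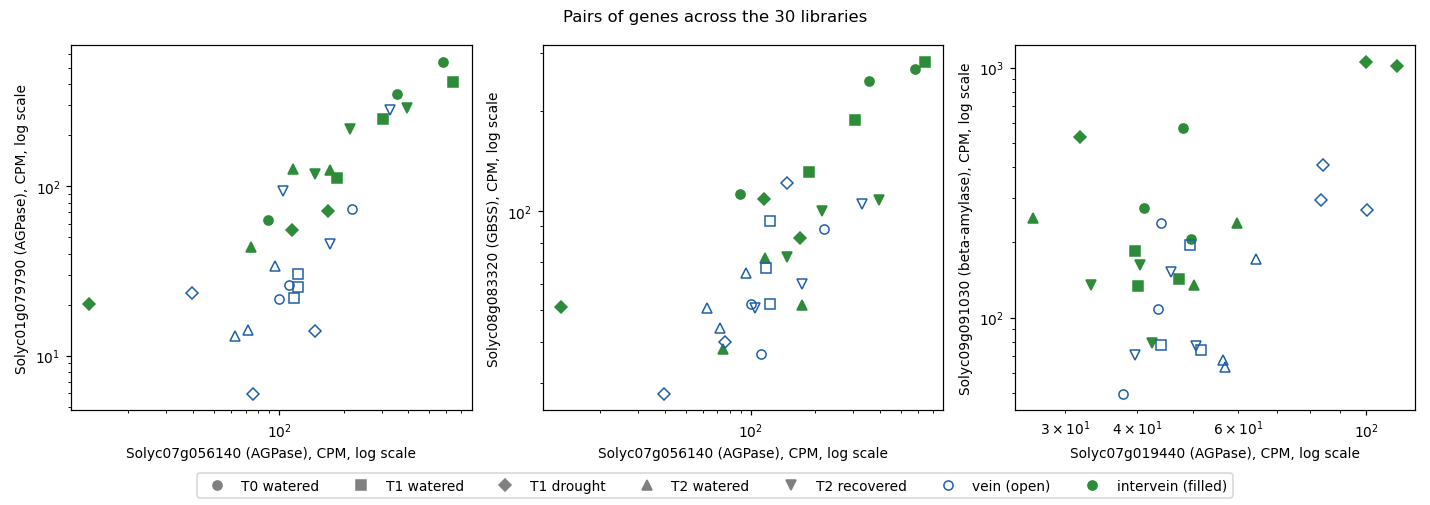
Level of 1 gene against another in the 30 libraries, in CPM on log axes, for Solyc07g056140 with Solyc01g079790, Solyc07g056140 with Solyc08g083320 and Solyc07g019440 with Solyc09g091030. Open symbols are vein and filled symbols intervein, with 1 shape per condition, and the drought libraries (diamonds) lie low on both axes in intervein in the left panel and, apart from intervein T1 drought 1, to the upper right in the right panel.

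Across libraries of 1 tissue, log2 CPM values of some of the 9 genes ran together, and these correlations are descriptions over libraries that share conditions, plants and scaling. Solyc07g056140 and Solyc01g079790, both pyrophosphorylase genes, had r = 0.69 and rho = 0.59 over the 15 vein libraries, and r = 0.94 and rho = 0.94 over the 15 intervein libraries. Solyc07g056140 and the starch synthase gene Solyc08g083320 had r = 0.78 and rho = 0.78 over the 15 vein libraries, and r = 0.76 and rho = 0.74 over the 15 intervein libraries. Solyc07g019440 and Solyc07g056140 had r = -0.44 and rho = -0.40 over the 15 vein libraries, and r = 0.11 and rho = 0.02 over the 15 intervein libraries. Solyc07g019440 and the beta-amylase gene Solyc09g091030 had r = 0.68 and rho = 0.50 over the 15 vein libraries, and r = 0.60 and rho = 0.29 over the 15 intervein libraries. Solyc01g079790 and the beta-amylase gene Solyc01g067660 ran opposite, with r = -0.72 and rho = -0.62 over the 15 vein libraries, and r = -0.49 and rho = -0.39 over the 15 intervein libraries.

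For the gene with the highest CPM in each class, the 2 rows of most similar pattern were sought by Pearson's r of log2 CPM among 11634 rows with a mean of at least 10 CPM. They were Solyc01g111120 (r = 0.95 over 30 libraries, 0.93 within vein and 0.95 within intervein) and Solyc02g085100 (r = 0.93 over 30 libraries, 0.82 within vein and 0.97 within intervein) for Solyc07g056140. For Solyc08g083320 they were Solyc10g080080 (r = 0.85 over 30 libraries, 0.44 within vein and 0.92 within intervein) and Solyc07g066610 (r = 0.84 over 30 libraries, 0.58 within vein and 0.88 within intervein), and for Solyc08g077530 they were Solyc05g006730 (r = 0.79 over 30 libraries, 0.56 within vein and 0.67 within intervein) and Solyc10g086570 (r = 0.79 over 30 libraries, 0.68 within vein and 0.55 within intervein). The files give these rows no name. The 30 libraries span both tissues, which differ for all 3 of these genes, and within vein the values for Solyc08g083320 were lower.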

How the data were processed

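The 30 tomato leaf libraries, 3 plants in each of 10 groups, were stranded mRNA libraries sequenced as single reads of 75 nt, per the labels' protocols. The submitters' processing notes name HISAT2 2.1.0 and StringTie 1.3.3b, along with DESeq2 1.20.0 and FastQC 0.11.5. Not given in the sources used here were genome build, annotation and the treatment of reads shared by similar genes, and values of near-identical gene copies are uncertain. Per the file headers, the deposited table holds raw counts per gene and library. Beside them stands the authors' T1 comparison, with a log2 fold change and its standard error on the log2 scale, a test statistic (a score), and raw and adjusted p-values.

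The deposited counts were tested with edgeR 4.0.16 in R 4.3.3. After filterByExpr 19431 of 35596 rows stayed, and libraries were scaled by TMM. A coefficient per group was fitted to the 30 libraries with glmQLFit, leaving 20 residual degrees of freedom, and 13 comparisons were tested with glmQLFTest (two-sided). Benjamini-Hochberg adjustment covered every tested row, and genes with an adjusted p under 0.05 were called. Standard errors are the size of the log2 fold change divided by the square root of F, with 95% intervals from the t distribution. The p-values rest on the spread between the 3 plants of a group, estimated per gene over all 10 groups together. They do not measure the spread of the compared groups alone. In the main fit, vein and intervein libraries entered as independent, though both tissues came from the same leaves. Alternatives were DESeq2 1.42.0, DESeq2's size factors, no filter, a block for the replicate number or plant, the compared groups alone, and libraries left out.

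The 9 genes, their classes and all lists were chosen with earlier results of these data known. All 9 were to be named, plus, for the gene of each class with the highest CPM, the 2 rows most like it. A list of other starch genes by gene name held 0 genes and was not tested, since 0 identifiers occurred among the 41476 genes of the reference table (assembly SLM_r2.1). No sequence is shown for the same reason.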

Additional observations from a re-analysis of the deposited data

Results flagged for a closer look

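Between T1 and T2 the intervein response of 3 genes differed, each by edgeR's test of the difference itself (response at T2 minus response at T1, each against its own watered group). The pyrophosphorylase subunit gene Solyc01g079790 had a difference of 3.48 log2 (SE 1.06, adjusted p = 0.0377 by edgeR), with a response of -2.39 at T1 and 1.09 at T2. Its recovered and drought intervein groups differed by 2.09 log2, which was not called (SE 0.76, adjusted p = 0.118 by edgeR). Its watered intervein mean was 257 CPM at T1 and 98.1 CPM at T2. The granule-bound starch synthase gene Solyc08g083320 had a difference of 2.101 log2 (SE 0.68, adjusted p = 0.0476 by edgeR), with -1.31 at T1 and 0.79 at T2. For this gene recovered and drought intervein had means of 93.6 and 80.6 CPM (0.21 log2, SE 0.47, adjusted p = 0.856 by edgeR), and watered intervein had 200.3 CPM at T1 and 54.03 CPM at T2. The beta-amylase gene Solyc09g091030 had a difference of -3.22 log2 (SE 0.77, adjusted p = 0.0124 by edgeR), with 2.49 at T1 and -0.73 at T2. Of these responses, that of Solyc09g091030 at T1 was the only 1 called by itself. Without intervein T1 drought 1, the library with few detected genes, the differences were 3.24, 1.98 and -3.38 in the same order (adjusted p = 0.0772, 0.0925 and 0.0134 by edgeR). Without intervein T2 recovered 1, whose tissue score is near that of vein, they were 3.76, 2.25 and -2.98 (adjusted p = 0.0391, 0.0523 and 0.0314 by edgeR).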

How the results depend on the processing

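Of 1012 alternatives to the 57 log2 fold changes of the 9 genes with an unadjusted p under 0.2, 916 kept direction and call, 57 lost a call, 39 gained one and 0 turned. Of the other 60 values, many of them with wide intervals, 31 changed sign under some alternative, and their direction is not read. Of 229 alternatives to the number of genes called, 42 moved it to or from 0 or by more than 1.5 times. The cause was not tested. With DESeq2 the number called was 5 in place of 1 for drought in intervein, where DESeq2 called 13.7% of all rows. It was 2 in place of 0 for recovered vein (9.37% of rows). For T2 recovered against T1 drought it was 3 in place of 1 in vein (9.78%) and in intervein (11.7%). For the change of response it was 1 in place of 0 in vein (7.85%) and 5 in place of 3 in intervein (19.2%). For watered T2 against T1 it was 1 in place of 0 (8.56%). With the compared groups alone, which leaves fewer libraries to estimate the spread, it was 0, 0 and 0 for drought in intervein and the T2 recovered against T1 drought pair, 1 and 1 for the change of response in vein and intervein, and 1 for watered T2 against T1. Without both T2 libraries out of place, or those and vein T1 drought 2, it was 2 for drought in intervein and 0 for T2 recovered against T1 drought in vein, and without all 3 it was 0 for the latter in intervein. Leaving out 1 library at a time gave 0 to 1 for drought in vein, where 10 to 341 of all rows were called. It gave 0 to 2 for drought in intervein (205 to 980 rows) and for recovered vein (0 to 1121). The range was also 0 to 2 for T2 recovered against T1 drought in vein (5 to 851) and intervein (22 to 744). For the change of response it was 0 to 1 in vein (41 to 512) and 1 to 5 in intervein (900 to 2239). For vein against intervein it was 4 to 7 (4576 to 5931). For the compared groups alone and without the out-of-place libraries, only some numbers of all rows called are given, below.

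Over all rows, DESeq2 called 887, 2569, 1713 and 1354 for drought and recovered plants in vein and intervein, against 135, 1009, 305 and 150 by edgeR. With the compared groups alone edgeR called 336, 0, 0 and 0. The background for Solyc09g091030 and the other genes thus depends on the tool and on the libraries fitted. Without both T2 libraries out of place edgeR called 0 for recovered vein, and over single libraries left out 0 to 1121.

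Replicate numbers were not taken to pair the samples. Deviations of same-numbered vein and intervein libraries had a median correlation of 0.0399 (-0.347 to 0.370), with 6 of 15 over 0.1, against a median of -0.0507 and 5 of 30 over 0.1 for libraries of other numbers. The labels do not say that a number marks a plant in both tissues. A fit with the replicate block called 2 in place of 1 gene for T2 recovered against T1 drought in vein, and the call of Solyc08g083320 for the change of response in intervein was lost (2.07 log2, adjusted p = 0.0524 by edgeR). With the plant number as replicate block, that of Solyc07g056140 between tissues was lost (-1.04 log2, adjusted p = 0.12 by edgeR).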
